A study of Mus musculus with 6 samples.

Results

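Among the genes measured in mouse LSK cells with and without added Hhex were 9 markers of macrophages, monocytes and dendritic cells, and these are described here. The 9 genes, of 12161 in the table, are the C1q chains C1qa, C1qb and C1qc, then Tmem119, Cx3cr1, F13a1, Itgax, Cd68 and Klf4. All 9 were found by their symbol. They were chosen from a wider set of myeloid genes with the difference between the vectors already known, so every difference between vectors given for them is a description, and no p-value is attached to it. The related gene lists given below were also chosen with earlier results of these data known. The counts and adjusted p-values between vectors of their genes are therefore descriptions too, and no independent support.

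LSK cells are the lineage-negative, Sca1-positive, Kit-positive cells of bone marrow, which hold blood stem cells and early progenitors. The study took them from the leg and arm bones of C57BL/6 mice. MIG is a retroviral vector with a GFP marker, and MIG-Hhex carries the homeobox transcription factor Hhex in addition. The MIG group (genotype label wild-type) and the MIG-Hhex group (genotype label Hhex) each have 3 libraries, from replicates WT3, WT691 and WT703, which the design text calls biological. All cells, controls included, were exposed to virus on plates coated with retronectin, kept in culture over 2 days (IL-3, printed as mL-3 in the labels, and IL-6 at 10 ng/mL each, Flt3 ligand and stem cell factor at 50 ng/mL each), and sorted for GFP. Both groups therefore hold cultured, transduced cells under differentiating cytokines, and the added Hhex is driven by the vector. The libraries of replicate WT3 share one flow cell (C3RJFACXX) and the other 4 share another (C5LWPANXX).

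Macrophages, monocytes and dendritic cells arise from myeloid progenitors and share a machinery for engulfing and presenting material. C1q, built of A, B and C chains, starts the classical complement pathway by binding immune complexes and dying cells, and tissue macrophages are its main source. Classical monocytes leave the marrow through the chemokine receptor Ccr2, while Cx3cr1, the receptor of fractalkine, marks patrolling monocytes and many resident macrophages. Dendritic cells are recognised by the integrin Itgax (CD11c) and by antigen presentation genes.

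Values are log2 expression values that appear to be scaled to gene length, so that 1 unit is a doubling. Library medians lay between 3.56 and 3.60, and the depth in reads is unknown. Of the LSK markers, Kit lay between 4.44 and 4.86 and Cd34 between 6.82 and 7.50. Ly6a, which encodes Sca1, lay at 3.18 and 3.55 in the libraries of replicate WT3 and between 5.89 and 6.25 in the other 4. The added factor was visible in each pair, with Hhex between 5.05 and 5.18 with MIG and at 7.61, 9.34 and 9.06 with MIG-Hhex in replicates WT3, WT691 and WT703.

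With MIG-Hhex, the C1q chains, Tmem119, Itgax and Cx3cr1 had higher values in all 3 pairs, F13a1 and Klf4 had lower values in all 3, and Cd68 differed by less than the spread between replicates. In the fit over all genes, 5 of the 9 passed the threshold (adjusted p under 0.05) as higher, against 9.44% of all genes, and 1 as lower, against 8.52%. The higher ones were C1qb, C1qc, Tmem119, Itgax and Cx3cr1, and the lower one was F13a1. C1qa, Cd68 and Klf4 did not pass. With the replicate name as a block, C1qa and Klf4 passed as well, which makes 6 higher and 2 lower. In that fit, 1506 of all 12161 genes were higher and 1473 lower. All 3 MIG-Hhex libraries lay above all 3 MIG libraries for Tmem119, Itgax and Cx3cr1 (10.2% of all genes did so) and below them for F13a1 (11.0%). Since the genes were picked from this contrast, nothing is read from these shares. The median difference was 1.91 over the 9 genes and −0.02 over all genes. In bulk samples such as these, a change in the number of cells of a type and a change of RNA per cell cannot be told apart.

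**Figure D1:**
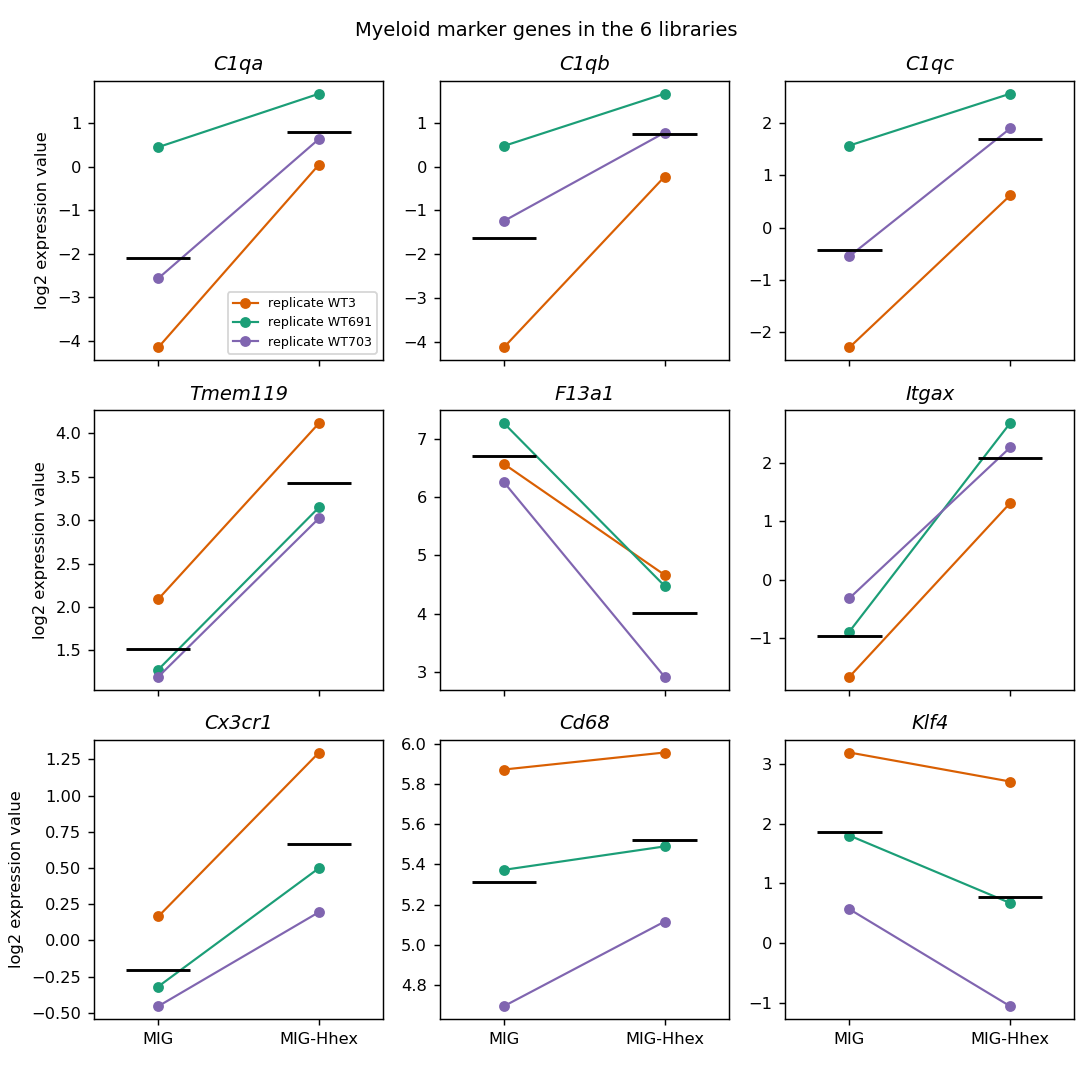
Log2 expression value (vertical axis, scaled for each gene) of the 9 genes with the MIG and MIG-Hhex vectors (horizontal axis). Each point is 1 library, each line joins the libraries of 1 replicate, and black bars are group means (n = 3). Tmem119, Itgax and Cx3cr1 rise without overlap of the groups and F13a1 falls without overlap, while the C1q chains, Cd68 and Klf4 overlap.

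The C1q genes lie side by side on the minus strand of chromosome 4 (GRCm38). C1qb (Entrez 12260) spans 136880126 to 136886200, C1qc (12262) spans 136889801 to 136892936 and C1qa (12259) spans 136895916 to 136898844. The gaps between them are 3.60 and 2.98 kb, and no other annotated gene overlaps any of the 3. The nearest other measured protein-coding genes on either side, Ephb2 (43.80 kb from C1qb) and Zbtb40 (80.89 kb from C1qa), had differences of −0.62 (SE 0.19) and 0.06 (SE 0.12) with limma adjusted p = 0.0728 and 0.768 (0.0458 for Ephb2 with the replicate block). The start regions of C1qb and C1qc are shown because these neighbouring genes both passed as higher. Each is the RefSeq GRCm38.p6 sequence from 250 bases before to 50 bases after the annotated start, read along the gene, and capitals mark each match to GAGGAA or its reverse complement, the core recognised by the myeloid factor PU.1. C1qa and Tmem119 had no entry in that table.

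C1qb (chr4:136886151-136886450, minus strand): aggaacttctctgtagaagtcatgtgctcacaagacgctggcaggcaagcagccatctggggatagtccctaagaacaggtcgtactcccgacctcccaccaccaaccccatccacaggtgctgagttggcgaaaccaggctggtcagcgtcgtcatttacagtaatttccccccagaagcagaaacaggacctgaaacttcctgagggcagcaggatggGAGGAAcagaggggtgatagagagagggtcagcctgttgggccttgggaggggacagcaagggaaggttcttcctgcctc
C1qc (chr4:136892865-136893164, minus strand): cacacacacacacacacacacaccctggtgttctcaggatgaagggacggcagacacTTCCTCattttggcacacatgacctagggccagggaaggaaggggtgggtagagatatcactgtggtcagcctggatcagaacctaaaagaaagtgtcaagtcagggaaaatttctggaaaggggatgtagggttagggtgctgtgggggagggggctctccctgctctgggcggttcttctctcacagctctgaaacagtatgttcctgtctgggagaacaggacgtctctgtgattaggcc

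C1qb held 1 match, whose first base is at position −30 from the start, and C1qc held 1, at position −193 on the opposite strand. Of all 32851 promoter windows of this length, 28.3% held the motif. A match is a description of the letters and not evidence of binding.

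C1qa, the A chain, stood at −4.16, 0.45 and −2.57 in the MIG libraries of replicates WT3, WT691 and WT703, and at 0.05, 1.67 and 0.63 in the MIG-Hhex libraries. C1qb, the B chain, stood at −4.13, 0.47 and −1.24 with MIG and at −0.23, 1.67 and 0.78 with MIG-Hhex. C1qc, the C chain, stood at −2.29, 1.57 and −0.55 with MIG and at 0.62, 2.56 and 1.90 with MIG-Hhex. The MIG library of replicate WT691 was high for all 3 chains and made the groups overlap, whereas within each pair the MIG-Hhex library was higher. The difference was 2.88 for C1qa (SE 0.83), 2.37 for C1qb (SE 0.64) and 2.11 for C1qc (SE 0.56), which correspond to 7.35-fold, 5.17-fold and 4.32-fold. By pair, C1qa differed by 4.20, 1.23 and 3.20, so replicate WT691 showed the smallest difference. C1qb differed by 3.90, 1.19 and 2.02, and C1qc by 2.90, 0.99 and 2.44, in the same order of replicates.

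The chains were weakly expressed. In the MIG library of replicate WT3, with log2 gene length added back, C1qa ranked 2 and C1qb 12 from the lowest of 11700 genes, and C1qc ranked 119. The difference of that pair is therefore measured from close to the lowest values the table holds. In the MIG-Hhex library of replicate WT691, the highest of the 6 for each chain, C1qa still ranked 1370 from the lowest. With a pseudocount of 1 added on the linear scale, the differences shrank to 0.97, 0.85 and 1.12, and none of the chains passed (limma). The calls of C1qb and C1qc did not hold in 7 of 9 runs, each without 1 library or 1 replicate (called left-out runs from here on; limma). They held in the remaining 2, without the MIG library of replicate WT691 (differences of 3.08 and 2.83) and without that replicate altogether (2.96 and 2.67), and in those 2 runs C1qa passed too (3.93 and 3.70).

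The proportion between the chains varied by library, in part among values near the lowest of the table. C1qc exceeded C1qb by 0.70 to 1.84 and C1qa by 0.57 to 2.02 in the 6 libraries. C1qa differed from C1qb by −0.14 to 0.27 in 5 libraries and by −1.33 in the MIG library of replicate WT703. In that library, with log2 gene length added back, C1qa and C1qb ranked 43 and 169 from the lowest of 11700 genes. No change of proportion is therefore read from it. The Pearson correlation over the 6 libraries was 0.97 to 0.99 between chains, as a description, since the libraries share 2 vectors and 2 flow cells.

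Of 26 listed complement genes, receptors and regulators, 16 were measured. Of these, 3 rose and 0 fell, 13 missed the threshold, and the median difference was 0.04, against −0.02 over all genes. For this list and those below, the shares over all genes were 9.44% higher and 8.52% lower. C3, the central component on which all complement pathways converge, rose by 1.50 (SE 0.30, limma adjusted p = 0.021). Its receptor C3ar1 rose by 0.96 (limma adjusted p = 0.0283) and Itgb2, the shared beta chain of the complement receptor integrins, by 0.78 (limma adjusted p = 0.0186). These 3 calls failed in 4, 6 and 5 of the 9 left-out runs, with limma adjusted p reaching 0.0687, 0.166 and 0.057. Of proteins reported to bind C1q, C1qbp, a mitochondrial protein, had a difference of −0.19 (limma adjusted p = 0.114), Calr, calreticulin, one of −0.06 (0.716), and Cd93, a surface protein of progenitors and endothelium, one of −0.51 (0.0505). Cd93 passed with the replicate block (limma adjusted p = 0.0398) and, by a small margin, with median centring (0.049). It also passed in 3 of the 9 left-out runs, with limma adjusted p between 0.0203 and 0.2 over the 9. C1ra, a protease of the C1 complex, stood at 0.13 with MIG and −0.01 with MIG-Hhex.

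Tmem119 encodes a membrane protein used as a marker of microglia, the macrophages of the brain, and also found in bone-forming cells. Its values were 2.09, 1.28 and 1.19 with MIG and 4.12, 3.15 and 3.02 with MIG-Hhex. Both libraries of replicate WT3 were the highest of their group, and the lowest MIG-Hhex value exceeded the highest MIG value. The difference was 1.91 (SE 0.10, 3.75-fold), and the 3 pairs gave 2.03, 1.87 and 1.83, the narrowest range of the 9 genes. Without the flow cell term in the fit it missed the threshold, with the same difference. Tmem119 (Entrez 231633) lies on chromosome 5 from 113793729 to 113800396, and its neighbour Selplg, 17.40 kb away, which encodes the selectin ligand PSGL-1, rose by 0.54 (SE 0.08, limma adjusted p = 0.00949). The nearest measured protein-coding gene on the other side, Iscu, had a difference of −0.04 (limma adjusted p = 0.729).

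Among other microglia genes, 10 of 15 were measured, and their median difference was 0.31. Of the 10, 2 rose, 1 fell and 7 missed the threshold. Gpr34, a lysophospholipid receptor, fell by 3.18 (SE 0.56, limma adjusted p = 0.014). The purinergic receptors P2ry12 and P2ry13 stood at −0.03 and 2.23 with MIG and at −0.55 and 1.01 with MIG-Hhex, without passing, although P2ry13 passed with the replicate block (limma adjusted p = 0.0164). Selplg and Tyrobp, an adaptor of activating receptors, were the 2 that rose, and the call of Tyrobp (0.48) failed in 8 left-out runs, with a limma adjusted p of up to 0.124. That of Gpr34 failed in 2, with up to 0.0609.

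Cx3cr1 (Entrez 13051, chromosome 9, 120048683 to 120068296) stood at 0.17, −0.32 and −0.45 with MIG and at 1.30, 0.50 and 0.20 with MIG-Hhex. The groups did not overlap, but the gap between the highest MIG and the lowest MIG-Hhex value was small. The difference was 0.87 (SE 0.19, 1.82-fold), and the pairs gave 1.13, 0.82 and 0.65. It was past the threshold in 1 of the 9 left-out runs, without the MIG-Hhex library of replicate WT703 (difference 0.99). Its ligand Cx3cl1 (fractalkine) had a difference of 0.57 that did not pass (limma adjusted p = 0.233).

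F13a1 encodes the A subunit of coagulation factor XIII, a transglutaminase that cross-links fibrin and is made by monocytes, macrophages and megakaryocytes. It was the most strongly expressed of the 9 genes with MIG, at 6.58, 7.28 and 6.26, and stood at 4.67, 4.48 and 2.91 with MIG-Hhex. No MIG-Hhex library reached the lowest MIG library. The difference was −2.69 (SE 0.47, 6.45-fold lower), and the pairs gave −1.91, −2.80 and −3.35, with the smallest fall in replicate WT3. Within each library's own distribution, F13a1 went from percentiles 89.6 to 96.3 with MIG to 39.1 to 68.6 with MIG-Hhex. Its fall was the 55th largest of the 12161 genes, and it passed in all 9 left-out runs (difference −3.08 to −2.13). Without the flow cell term in the fit it missed the threshold (difference −2.69 as before).

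F13a1 (Entrez 74145) spans 36867178 to 37050244 on the minus strand of chromosome 13, and no other protein-coding gene of the table with a matched location lies within 100 kb. The predicted genes Gm30489 and Gm30240 overlap it. Of its 2 start regions in the RefSeq table, the outer one is shown, since this gene fell the most of the 9, with the same motif in capitals.

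F13a1 (chr13:37050195-37050494, minus strand): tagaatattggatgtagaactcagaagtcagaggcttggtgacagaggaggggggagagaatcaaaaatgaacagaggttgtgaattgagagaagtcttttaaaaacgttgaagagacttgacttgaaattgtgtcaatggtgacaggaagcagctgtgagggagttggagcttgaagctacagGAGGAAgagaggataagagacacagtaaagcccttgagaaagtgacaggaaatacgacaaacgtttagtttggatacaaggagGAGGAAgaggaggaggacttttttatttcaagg

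This window held 2 matches to GAGGAA, at positions −66 and 17 from the start.

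Classical monocyte genes moved in both directions. All 23 listed genes were measured, and 4 rose while 6 fell. The remaining 13 missed the threshold, and the median difference was 0.09. Those that fell besides Cd14 did so by 1.26 or more. Ccr2 fell by 2.04 (SE 0.17, 4.12-fold lower, limma adjusted p = 0.00147) and Fn1, fibronectin, by 2.36 (SE 0.31, 5.12-fold lower, limma adjusted p = 0.00545). Both fell in every pair and passed in all 9 left-out runs. Ms4a6c, a membrane protein of monocytes, fell by 2.07 (limma adjusted p = 0.0195) and Cd14, the lipopolysaccharide co-receptor, by 0.75 (limma adjusted p = 0.00796), and each failed in 1 left-out run. Further genes named after their values were seen, Cybb (an oxidase subunit, −1.62) and Ms4a6b (−1.26), completed the 6, and their calls failed in 6 and 7 left-out runs. Among those that rose were Mgst1 (a glutathione transferase, 1.18), S100a4 (a calcium-binding protein, 0.70, failing in 6 left-out runs) and Irf8 (a factor of monocytes and dendritic cells, 0.54). Ly6c2, part of the Ly6C antigen that defines classical monocytes, had a difference of 0.34 (SE 0.18, limma adjusted p = 0.241). Csf1r, the receptor of the macrophage growth factor, stood at 4.53, 4.37 and 3.55 with MIG and at 5.29, 5.48 and 4.59 with MIG-Hhex, without overlap but with a limma adjusted p of 0.0609 (0.00146 with the replicate block). Csf1r passed in 3 of the 9 left-out runs.

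Of the other transglutaminase and coagulation genes, 12 of 17 were measured, 4 rose and 4 fell, with a median difference of −0.26. F13b, the carrier subunit of factor XIII, was not among the measured genes. Tgm2, tissue transglutaminase, rose by 2.30 (SE 0.19, 4.91-fold, limma adjusted p = 0.00151) and Tgm1 by 0.72 (limma adjusted p = 0.00453). Anxa2, annexin A2, a surface cofactor of plasmin formation, fell by 1.12 (SE 0.09, limma adjusted p = 0.00137). F7, coagulation factor VII, and Thbd, thrombomodulin, fell by 1.45 and 2.18 (limma adjusted p = 0.0397 and 0.0382), and these calls failed in 7 and 9 of the 9 left-out runs (up to 0.0912 for each). Of 12 measured genes among 13 in the chemokine and fractalkine list, 3 rose and 2 fell. The chemokine receptor Ccr1 fell by 2.27 (SE 0.27, limma adjusted p = 0.00431), as Ccr2 did. Cmklr1, the chemerin receptor of macrophages and plasmacytoid dendritic cells, rose by 3.60 (SE 0.32, 12.1-fold, limma adjusted p = 0.00179), from −0.38 to 3.22.

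**Figure D2:**
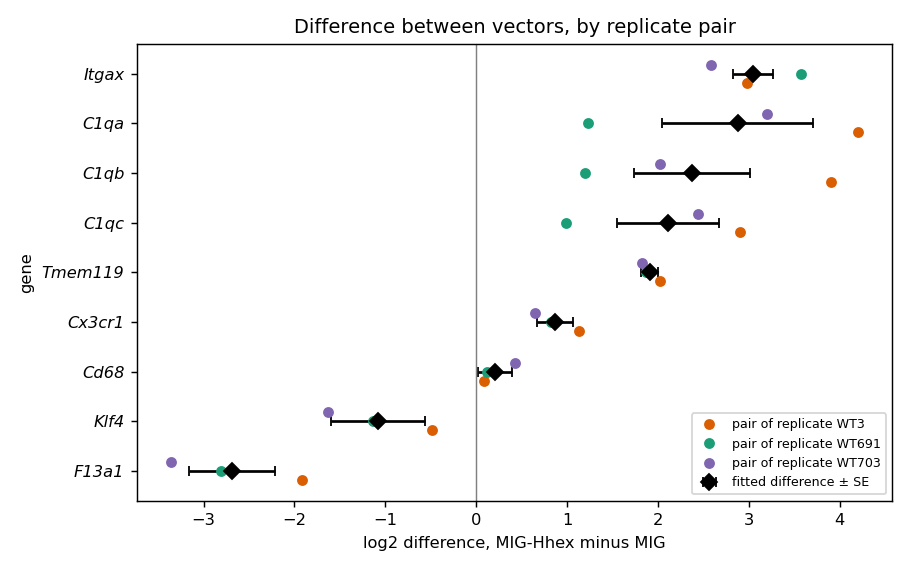
Log2 difference between MIG-Hhex and MIG (horizontal axis) for each of the 9 genes (vertical axis), with coloured points for the 3 replicate pairs and black diamonds for the fitted difference ± SE. The pairs of Tmem119 lie between 1.83 and 2.03, whereas those of C1qa spread from 1.23 to 4.20.

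Itgax encodes CD11c, the alpha chain that pairs with Itgb2 to form complement receptor 4. It stood at −1.66, −0.89 and −0.31 with MIG and at 1.32, 2.68 and 2.27 with MIG-Hhex. All MIG values were below 0 and all MIG-Hhex values well above it. The difference was 3.04 (SE 0.22, 8.24-fold), the largest of the 9 and the 36th largest rise in the table, and the pairs gave 2.98, 3.57 and 2.58. Over the alternative analyses the difference ran from 1.79 (with the pseudocount) to 3.27. Itgax (Entrez 16411) lies on the plus strand of chromosome 7 from 128129526 to 128150657, within a cluster of related integrin genes. Itgam (CD11b), which ends 11.04 kb before it, had a difference of −0.31 (SE 0.11, limma adjusted p = 0.104), and Itgad, 23.28 kb beyond it, one of 0.51 (SE 0.61, limma adjusted p = 0.595). The start region is shown because the neighbouring integrin genes did not pass the test. It held no match to GAGGAA and so has no capitals.

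Itgax (chr7:128129300-128129599, plus strand): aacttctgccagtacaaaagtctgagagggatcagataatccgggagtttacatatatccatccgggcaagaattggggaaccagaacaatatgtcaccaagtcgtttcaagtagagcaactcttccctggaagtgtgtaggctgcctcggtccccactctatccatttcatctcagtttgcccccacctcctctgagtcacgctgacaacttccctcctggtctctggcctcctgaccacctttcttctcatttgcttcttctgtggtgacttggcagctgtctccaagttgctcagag

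All 8 genes of the beta2 integrin list were measured, and 3 rose and 2 fell. Besides Itgb2, Fermt3 (kindlin-3, 0.40) and Tln1 (talin, 0.45), which activate these integrins from inside the cell, rose (limma adjusted p = 0.0177 and 0.0078), and these calls failed in 5 and 1 of the left-out runs. Itgal (CD11a) and the ligand Icam2 fell by 0.28 and 0.27 (limma adjusted p = 0.0198 and 0.0305), and each call failed in 8 of those runs.

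Among dendritic cell genes, 23 of 32 were measured, with a median difference of 0.30. Of the 23, 7 rose, 1 fell and 15 missed the threshold. Ciita, the switch of MHC class II expression, rose by 3.10 (limma adjusted p = 0.00483) from a MIG mean of −4.12. The invariant chain gene Cd74 rose by 2.37 (limma adjusted p = 0.00523) and Id2, a regulator needed for several dendritic cell types, by 1.08 (limma adjusted p = 0.00453). Zbtb46, a factor of classical dendritic cells named after its value was seen, rose by 1.61 from a MIG mean of −2.99 (limma adjusted p = 0.0433), a call that failed in all 9 left-out runs (reaching 0.173). Tcf4, the factor of plasmacytoid dendritic cells, fell by 0.50 (limma adjusted p = 0.0169), a call that failed in 4 left-out runs. Flt3, the receptor of the culture's Flt3 ligand, had a difference of −0.47, and Sirpa, Cd24a and Cst3 had differences of −0.24, −0.13 and 0.14, none past the threshold. Several defining genes of dendritic cell subsets, among them Xcr1, Clec9a, Cd209a and Siglech, were not among the measured genes.

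Cd68 encodes macrosialin, a lysosomal membrane protein of the LAMP family abundant in macrophages. It stood at 5.87, 5.37 and 4.69 with MIG and at 5.96, 5.49 and 5.12 with MIG-Hhex. The order of the replicates was the same in both groups, and the groups overlapped widely. The difference was 0.21 (SE 0.18), and the pairs gave 0.08, 0.12 and 0.42. Without the MIG library of replicate WT703 it was −0.00387. Cd68 (Entrez 12514, chromosome 11, 69664213 to 69666170) lies 0.77 kb from Eif4a1 and 1.56 kb from Mpdu1, which had differences of −0.08 and 0.01. With MIG-Hhex, F13a1 lay below Cd68 in every library, whereas with MIG it lay above it in every library.

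Tissue macrophage genes other than the 9 gave 7 rises, 2 falls and 13 genes short of the threshold, among 22 measured of 28 listed, with a median difference of 0.52. Adgre1, which encodes F4/80, rose from 3.53 to 4.95 (difference 1.42, SE 0.20, limma adjusted p = 0.00695). Axl, a receptor for dying cells, rose by 1.99 (SE 0.23, limma adjusted p = 0.0037) and Maf, a factor of mature macrophages, by 1.79 (SE 0.24, limma adjusted p = 0.00581). These 3 passed in all 9 left-out runs. Spic, a factor of red pulp and marrow macrophages that recycle iron, rose by 1.76 (limma adjusted p = 0.0102). Marco, a scavenger receptor, rose by 3.26 (limma adjusted p = 0.0204), and Aif1 (Iba1, named after its value was seen) by 3.51 (limma adjusted p = 0.014), both from MIG means below −2. Ms4a7 fell by 3.45 (limma adjusted p = 0.0292) to a mean of −3.99. The call of Aif1 failed in 1 left-out run. The calls of Spic, Marco and Ms4a7 failed in 3, 6 and 6 left-out runs (reaching limma adjusted p = 0.0553, 0.0995 and 0.146). Mrc1, Fcgr1, Trem2 and Slc40a1 had differences between 0.09 and 0.38, none past the threshold. Cd163 and Mpeg1 had differences of −1.03 and −0.54 and missed it too, while 17 of the 22 differences were positive. Mertk, Siglec1, Timd4 and Vsig4 were not among the measured genes.

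Scavenger receptors and lysosomal membrane genes, the group to which Cd68 belongs, gave 4 rises and 1 fall among 13 measured of 15. Laptm5 and Cd63, both of endosomes and lysosomes, rose by 0.52 and 0.38 (limma adjusted p = 0.00353 and 0.00944). The related Lamp1 and Lamp2 had differences of −0.20 and −0.00, and Scarb2 fell by 0.31 (limma adjusted p = 0.014, failing in 6 left-out runs).

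Klf4, a zinc finger factor that promotes monocyte differentiation, stood at 3.19, 1.80 and 0.57 with MIG and at 2.71, 0.67 and −1.06 with MIG-Hhex. The replicates differed from each other by more than the vectors did, and replicate WT3 was the highest in both groups. The difference was −1.08 (SE 0.52, 2.11-fold lower), and the pairs gave −0.49, −1.13 and −1.63. Klf4 (Entrez 16600) lies on chromosome 4 from 55527137 to 55532475. The other measured KLF genes showed no common direction. Klf1, the erythroid member, rose by 1.21 (limma adjusted p = 0.0399) a call that failed in 5 left-out runs. Klf2 and Klf6 had differences of 0.50 and −0.38 (limma adjusted p = 0.15 and 0.0932).

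Of the wider list of KLF and myeloid transcription factors, 28 of 30 were measured, with 7 rises, 1 fall, 20 genes short of the threshold and a median of 0.13. Nr4a1, a factor of non-classical monocytes, rose by 1.21 (SE 0.16, limma adjusted p = 0.00523) and Cebpa by 0.54 (SE 0.07, limma adjusted p = 0.00509), while Cebpd fell by 0.85 (SE 0.13, limma adjusted p = 0.00851). Both CEBP calls failed without replicate WT703, with limma adjusted p = 0.0528 and 0.063. Named after their values were seen, Irf5, a factor of inflammatory macrophages, rose by 1.30 (limma adjusted p = 0.0195) and Runx1 by 0.75 (limma adjusted p = 0.00937), and their calls failed in 3 and 1 left-out runs. Spi1, which encodes PU.1, stood at 7.24 with MIG and 7.51 with MIG-Hhex (limma adjusted p = 0.0532, and 0.0197 with the replicate block). In the non-classical monocyte list, 9 of 12 genes were measured, with 3 rises and 1 fall, and Spn (CD43) and Pglyrp1 rose with Nr4a1.

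**Figure D3:**
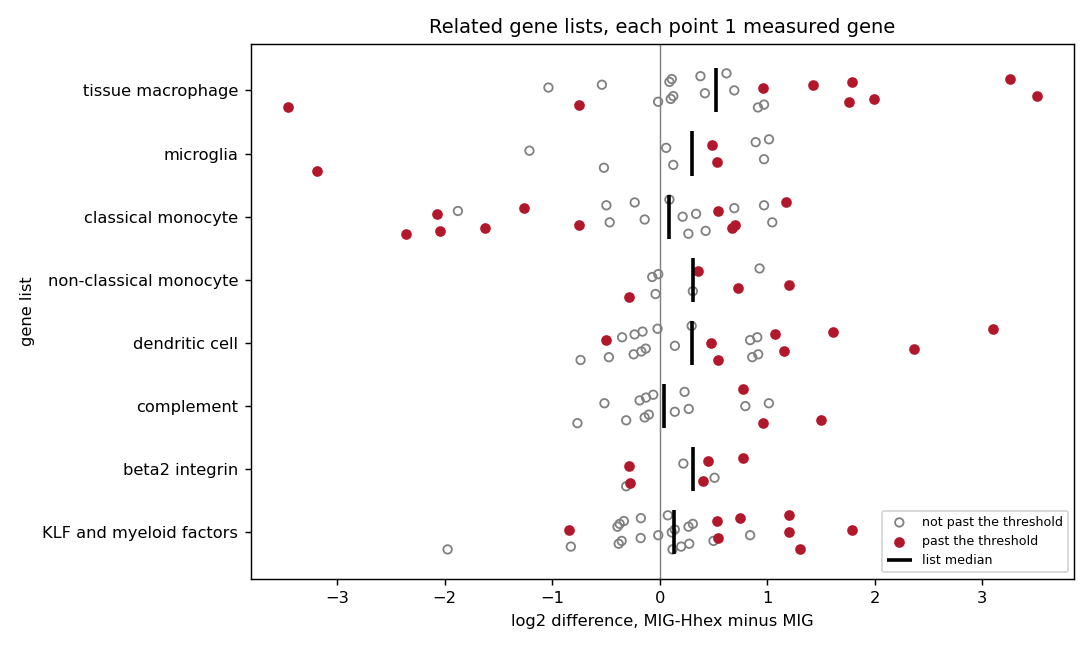
Log2 difference between MIG-Hhex and MIG (horizontal axis) of every measured gene in 8 related lists (vertical axis), with filled points past the threshold and black bars at the list medians. Classical monocyte genes spread from −2.36 to 1.18 around a median of 0.09, and tissue macrophage genes from −3.45 to 3.51 around 0.52.

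Markers of other cells moved in the same libraries. Of 11 measured neutrophil markers, 7 rose and 1 fell, and the sum of their linear values lay between 6158 and 7719 with MIG and between 5535 and 7568 with MIG-Hhex. Mpo, the myeloperoxidase of early granulocyte precursors, fell by 3.12 (limma adjusted p = 0.0105). Mmp9, Ngp and Cxcr2, of later neutrophil stages, rose by 2.97, 2.08 and 2.03 (limma adjusted p = 0.00664, 0.00191 and 0.00118). Of 6 mast cell and basophil markers, 0 rose and 3 fell, with sums of 199.7 to 406.8 and of 116.5 to 200.0. Summed over the tissue macrophage list, the values ran from 206.3 to 853.2 with MIG and from 324.1 to 1206 with MIG-Hhex. Over the classical monocyte list they ran from 971.5 to 2224 and from 1250 to 2748. The tissue macrophage sums rest largely on Lyz2, which is in both lists. Lyz2 stood at 6.95 to 9.51 with MIG and 7.72 to 10.02 with MIG-Hhex, without passing (limma adjusted p = 0.059). Its flow cell difference (C5LWPANXX minus C3RJFACXX) was −2.1 (limma adjusted p = 0.000801, which counts the libraries of a replicate as independent). Of 5 eosinophil markers, 1 rose and 0 fell, with sums of 4.64 to 52.9 and of 43.6 to 85.4. Of 9 erythroid and megakaryocyte markers, 3 rose and 1 fell, with sums of 69.7 to 111.5 and of 97.9 to 103.8. Of 5 B, T and NK cell markers, 1 rose and 0 fell, with sums of 79.8 to 166.0 and of 60.3 to 135.1. Among the LSK and progenitor markers, 0 of 10 rose and 1 fell (Meis1, by 0.79), a call that failed in the 3 left-out runs without a library of replicate WT3. The part of these other cells in the differences above was not tested. In all, the lists held 197 measured genes, of which 50 rose, 24 fell and 123 missed the threshold, with a median difference of 0.14. Over all genes, 9.44% were higher and 8.52% lower. Since the lists were chosen with earlier results known, nothing is read from their counts.

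The 9 genes were also compared between the flow cells, a contrast that played no part in choosing them. Flow cell and replicate cannot be told apart, since one flow cell holds replicate WT3 alone. With the vector accounted for, 7 of the 9 passed the threshold, but so did 46.6% of all genes. The fit counts the libraries of a replicate as independent, although those libraries were correlated. The adjusted p-values and the share of this comparison therefore do not measure the spread between replicates. C1qb and C1qc were higher on flow cell C5LWPANXX by 2.60 and 2.21 (limma adjusted p = 0.0205 and 0.0235), and Itgax by 1.11 (limma adjusted p = 0.00918). Klf4 was lower there by 2.45 (SE 0.55, limma adjusted p = 0.0121). For C1qb, C1qc, Cd68 and Klf4 the flow cell difference was larger in size than that between the vectors. Tmem119, Cx3cr1 and Cd68 were lower by 0.94, 0.75 and 0.75 (limma adjusted p = 0.00103, 0.0245 and 0.0206). C1qa (2.10) and F13a1 (−0.39) missed the threshold (limma adjusted p = 0.0926 and 0.553). Ly6a differed in the same libraries, as given above, and its part in these differences was not tested. Whether the response to the vector differed between flow cells cannot be judged from these libraries, since flow cell C3RJFACXX holds 1 library per vector.

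**Figure D4:**
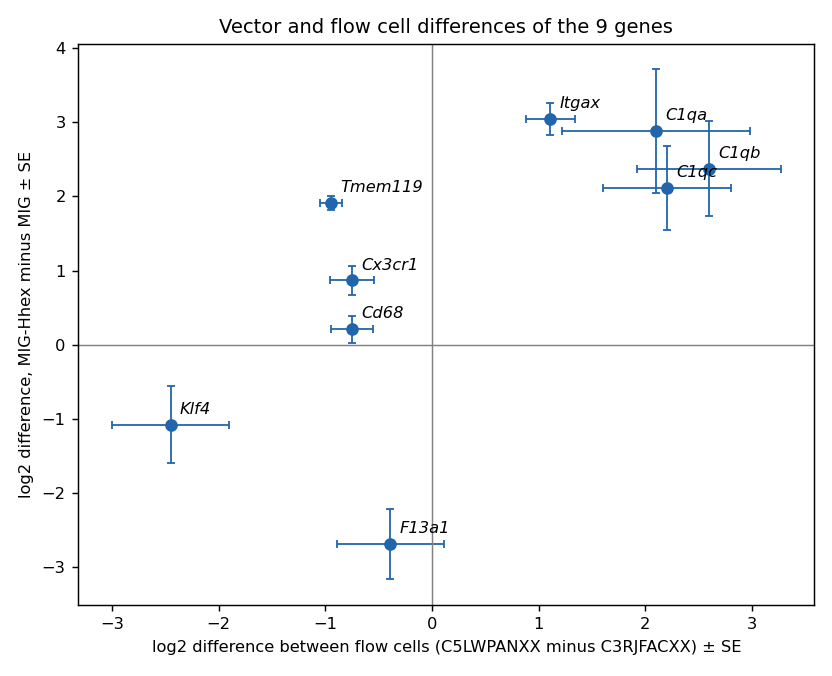
Log2 difference between the flow cells (C5LWPANXX minus C3RJFACXX, horizontal axis) and between the vectors (MIG-Hhex minus MIG, vertical axis) for the 9 genes, each ± SE from the same fit. C1qa, C1qb, C1qc and Itgax lie to the right, at 1.11 to 2.60, and Klf4 lies farthest to the left, at −2.45.

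In level, the 9 genes ranked differently with the vectors. With MIG, F13a1 (mean 6.71) lay above Cd68 (5.31), and their ranges did not overlap. Klf4 (1.85) and Tmem119 (1.52) came next and overlapped, as did Cx3cr1 (−0.20), C1qc (−0.42), Itgax (−0.95), C1qb (−1.63) and C1qa (−2.09) each with the next. With MIG-Hhex, Cd68 (5.52) lay above F13a1 (4.02) without overlap. Tmem119 (3.43) overlapped F13a1 and lay above Itgax (2.09) without overlap. C1qc (1.69), C1qa (0.78), Klf4 (0.77), C1qb (0.74) and Cx3cr1 (0.66) followed, each overlapping the next. Comparisons of level between genes rest on the scaling to gene length, which was inferred from the values.

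The genes whose values ran most like each of the 9 were named by the highest Pearson r over the 6 libraries, again as a description. Itgax was closest to Limk1 (r = 0.999), Foxred2 (0.998) and Rap1gap2 (0.997). F13a1 was closest to Shtn1 (0.991), which fell by 2.96 from a MIG mean of 2.55, then to St7 and Letm1 (0.989 each). Tmem119 ran with Cenpb (0.995), Daglb and Tesk1 (0.994 each), and Cx3cr1 with Tmem19 (0.996), Dcaf11 (0.995) and Abtb1 (0.994). Cd68 ran with Tpp1, a lysosomal protease (0.996), Lgals3, galectin-3 (0.994), and Dleu2 (0.993), and Klf4 with Stc2 (0.999), Ly86 (0.993) and Txndc11 (0.991). C1qa was closest to Troap (0.993), C1qb to Mgam (0.997) and C1qc to Synpo (0.992). Among the 9 themselves, Tmem119 and Cx3cr1 had an r of 0.95, and F13a1 and Itgax one of −0.89.

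Across the 7 members with an entry in the RefSeq promoter table, 8 windows were available. GAGGAA was found in 5 of the 8, on either strand, against 28.3% of all windows, and the 5 include the 2 windows of F13a1. CACCC, the core of KLF sites, was found in 5, against 57.5% of all windows. TGANTCA, the AP-1 site, was found in 2, those of Itgax and Cd68, against 7.81%. ATTAA, a core bound by homeodomains, was found in 0 of the 8, against 27.1%, which says only that these letters are not in these windows.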

How the data were processed

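The authors deposited 1 table with a normalized log2 value per gene and library. The submitters' processing notes name mm10 and the tools Subread, featureCounts, limma and edgeR, in no order. Versions, normalization and strand use: not given in the sources used here. Adding log2 exonic length (GENCODE, GRCm38; 11700 genes matched) reduced the mean range of matched quantiles over the 6 libraries from 0.120 to 0.0439, so the values appear to be per length. Read depth is unknown, so no counting interval is given, and folds of genes below 0 depend on an unknown offset.

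Libraries were grouped by the vector label. limma 3.58.1 (R 4.3.3) was fitted to all 12161 genes with terms for flow cell and vector and eBayes with a trend (3 residual degrees of freedom), with no filter. P-values are two-sided and Benjamini-Hochberg adjusted over all genes, and the threshold is 0.05. The procedure was tested on simulated data with independent noise per library. Those data lacked the pairing by replicate, so the test does not cover it. Differences are MIG-Hhex minus MIG with the SE of the fit. Replicate names pair the libraries: deviations from the group means correlated at 0.742 (replicate WT3), 0.585 (WT691) and 0.656 (WT703). The main fit leaves out this pairing for replicates WT691 and WT703, which share a flow cell. The left-out runs did not use the replicate block either.

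The members and the 17 related lists were chosen with earlier results of these data known. Named genes are the members, up to 4 per list and direction with the smallest p, the 3 most correlated genes per member, and partner or family genes. Others are marked as named afterwards; neighbours and non-passing list genes were also picked afterwards. Alternatives, run for 85 genes, were the replicate block, no flow cell term, no trend, quantile and median scaling, a mean filter, a pseudocount, each library or replicate left out, and 1 flow cell alone. No per-sample column was left unused.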

Additional observations from a re-analysis of the deposited data

How the results depend on the processing

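With the replicate block, 1506 genes were higher and 1473 lower, against 1148 and 1036 in the main fit. Of the members, 6 were higher and 2 lower. Of the list genes, 67 were higher against 50, and 43 lower against 24. Of the 85 genes rerun (9 members, 64 list genes and 12 others chosen after the data were seen), the replicate block added 7 calls (C1qa, Klf4, Csf1r, Cd93, Spi1, Ephb2 and P2ry13) and removed 0. Dropping flow cell from the fit left 119 genes higher and 98 lower, against 1148 and 1036, with 1 member higher (Itgax), 0 lower, and 9 and 2 list genes. Without the trend, 791 genes were higher and 638 lower, 3 members were higher (C1qb and C1qc were lost), 15 list genes were lower, and 4 members differed between flow cells. With the pseudocount, 1154 genes were higher and 1044 lower, and 3 members were higher, C1qb and C1qc not among them. On flow cell C5LWPANXX alone, the same libraries as without replicate WT3, 698 genes were higher, 519 lower and 2 members higher. Leaving out a library or a replicate gave 355 to 835 genes higher, 270 to 634 lower, 2 to 5 members higher and 12 to 20 list genes lower, with F13a1 the 1 lower member in each run. Where a library of replicate WT3 is left out, its partner adds nothing, so these runs are not independent. Over those runs Cd68 ranged from −0.00387 (without the MIG library of replicate WT703, reversed) to 0.385. Of the 64 list genes, 28 kept their call in all 9 left-out runs, 36 lost it in at least 1, and 0 changed sign in any alternative. Quantile scaling changed 0 calls of the 85 genes and median centring 1 (Cd93), and the median of all genes stayed between −0.0307 and −0.0126 throughout. The mean filter removed C1qa and C1qb, among others, and changed 0 calls of the remaining 73. The unknown depth and offset limit the folds of genes below 0, the C1q chains and Itgax among them.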
